A study of Mus musculus with 12 samples.

Results

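Genes were divided by the distance from their start to the nearest region of BMAL1 binding, and their mRNA level was compared in cells that had received the solvent only. The regions are the 4740 that the authors called with MACS2 on the control cells, of which 2944 lay near a gene start. A gene was called bound when a BMAL1 region was found no more than 1 kb from its start, which is the 5′ end of the most upstream exon annotated for it, and unbound when none lay within 50 kb. Of 23287 genes annotated at a single locus, 2948 were bound (12.7%), 4570 lay in between and 15769 were unbound. Every bound gene was kept whatever its mRNA level. The cells were embryonic fibroblasts of a 129/sv mouse in which Per1, Per2, Nr1d1 and Nr1d2 were knocked out (per1 -/-, per2 -/-, nr1d1 -/-, nr1d2 -/-) and which carried a PER2-ER transgene, so bound and unbound genes were read in the same background. The promoter of the transgene, and whether the cells were 1 clone, are not given in the sources used here. They had been exposed to 0.1% EtOH for 4 h. The series asks how induced PER2 changes BMAL1 binding and mRNA, and the cells given 4-OHT to induce it are not analysed here. Per group there were 2 libraries of mRNA-seq, 2 of ChIP-seq with a Bethyl antibody to BMAL1 and 2 of ChIP input, and the labels do not say whether the 2 came from separate cultures.

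BMAL1, encoded by Arntl, pairs with CLOCK, and the pair binds the E-box, a short palindromic DNA element, near the start of genes. Among its best-known targets are the genes of its own repressors, the PER and CRY proteins, and those of REV-ERBα and REV-ERBβ, which in turn repress Arntl. In fibroblasts, as in other tissues, this loop runs in most cells. Binding at a gene and the amount of its mRNA are separate measurements, since mRNA also depends on other factors at the promoter and on how fast the transcript decays.

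The 250 bases upstream of the RefSeq start (assembly GRCm38.p6, each written 5′ to 3′ on the gene's own strand) are shown for 6 genes that span the range of binding and mRNA described here. Capitals mark the E-box CACGTG. Gm129, now called Ciart, and Lamp1 were strongly bound, at a low and a very high mRNA level. Hlf was strongly bound and had little mRNA. Eef1a1 had a region of about median strength and is among the most abundant mRNAs. Vim and Col1a2 were unbound and about as abundant.
Gm129 (chr3:95882229-95882478, minus strand): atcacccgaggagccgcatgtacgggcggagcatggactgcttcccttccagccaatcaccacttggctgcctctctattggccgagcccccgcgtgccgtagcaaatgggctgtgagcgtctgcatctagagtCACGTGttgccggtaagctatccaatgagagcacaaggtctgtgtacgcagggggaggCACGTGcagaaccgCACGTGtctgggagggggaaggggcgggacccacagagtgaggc
Hlf (chr11:90390918-90391167, minus strand): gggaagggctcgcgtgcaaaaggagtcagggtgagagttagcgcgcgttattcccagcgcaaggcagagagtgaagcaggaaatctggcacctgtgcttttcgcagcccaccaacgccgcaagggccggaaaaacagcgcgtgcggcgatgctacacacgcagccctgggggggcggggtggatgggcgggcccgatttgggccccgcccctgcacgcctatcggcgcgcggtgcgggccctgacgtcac
Lamp1 (chr8:13158911-13159160, plus strand): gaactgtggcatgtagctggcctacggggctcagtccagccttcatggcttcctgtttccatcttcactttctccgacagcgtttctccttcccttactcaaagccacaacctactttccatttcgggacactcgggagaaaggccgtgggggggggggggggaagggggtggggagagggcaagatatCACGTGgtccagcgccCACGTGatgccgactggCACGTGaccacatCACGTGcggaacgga
Eef1a1 (chr9:78481725-78481974, minus strand): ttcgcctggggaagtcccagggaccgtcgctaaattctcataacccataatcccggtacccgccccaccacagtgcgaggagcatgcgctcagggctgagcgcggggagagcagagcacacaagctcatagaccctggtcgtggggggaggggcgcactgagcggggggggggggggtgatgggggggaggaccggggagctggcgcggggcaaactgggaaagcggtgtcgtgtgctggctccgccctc
Vim (chr2:13574061-13574310, plus strand): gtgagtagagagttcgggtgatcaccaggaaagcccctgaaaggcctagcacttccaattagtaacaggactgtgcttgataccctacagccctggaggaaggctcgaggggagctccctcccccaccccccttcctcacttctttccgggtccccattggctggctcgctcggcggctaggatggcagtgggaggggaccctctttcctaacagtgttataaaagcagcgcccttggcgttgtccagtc
Col1a2 (chr6:4505368-4505617, plus strand): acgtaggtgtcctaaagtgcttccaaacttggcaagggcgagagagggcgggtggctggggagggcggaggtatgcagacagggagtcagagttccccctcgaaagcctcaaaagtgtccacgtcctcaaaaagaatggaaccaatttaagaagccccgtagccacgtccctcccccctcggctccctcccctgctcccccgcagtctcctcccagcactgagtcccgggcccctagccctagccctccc
The upstream bases of Gm129 held 3 E-boxes and those of Lamp1 held 4, while none stood in the window shown for Hlf, Eef1a1, Vim or Col1a2.

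The mRNA libraries held 71633387 and 60267540 counted reads. The BMAL1 libraries held 13502201 and 17635022 reads and the inputs 13736646 and 28264889. The mRNA level is given as CPM (counts scaled to 1000000 counted reads) and, wherever genes are compared with each other, as CPM per kb of exon length. BMAL1 signal is given as reads in the region per 10000000 library reads (RP10M). A count of 3 corresponds to 0.0419 and 0.0498 CPM, and limits of this kind cover counting error only. Rank correlation across the bound genes was 0.998 between the 2 mRNA libraries and 0.949 between the 2 BMAL1 libraries. Of 15 fibroblast markers 12 reached 1 CPM in both libraries, Thy1 and Lum had no counts and Dcn stood at 0.154 and 0.116 CPM. Of 44 markers of 6 other cell types 7 reached that level, and the summed CPM of each of those 6 lists stayed between 2.46 and 31.3, against 30885 and 28586 for the fibroblast list. The knocked-out genes have counts as well, with 563 and 546 CPM for Per2, 41.9 and 36.5 for Per1, 48.9 and 55.6 for Nr1d1 and 82.9 and 91.9 for Nr1d2. Reads were summed over all their exons, and reads from PER2-ER may be counted as Per2, so the counts are no check of the knockouts.

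Bound genes reached the level of 1 CPM far more often than unbound genes. At least 1 CPM in both libraries was reached by 2728 of 2948 bound genes (92.5%), by 2654 of 4570 genes in between (58.1%) and by 6131 of 15769 unbound genes (38.9%), against 49.4% of all genes. The median bound gene had 18.1 and 18.1 CPM per kb in the 2 libraries, the median gene in between 2.82 and 2.84, and the median unbound gene 0.0174 and 0.0171, against 0.489 and 0.481 over all genes. The middle 50% of bound genes lay between 7.10 and 39.5 CPM per kb, and that of unbound genes between 0 and 7.01, so a gene at the lower quartile of the bound group had about the level of one at the upper quartile of the unbound group. No read was counted for 1.83% and 1.70% of bound genes, against 43.9% and 44.9% of unbound genes. With regions at −log10 q of 10 or more only, fewer genes were bound, 1757, of which 1623 reached 1 CPM (92.4%), with a median of 18.2 CPM per kb in library 1.

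On the scale of log2(CPM per kb + 0.1) the medians of bound and unbound genes differed by 7.28, with 7.28 in each library (SD 0.0035, n = 2 libraries). The difference is far larger than that spread, which covers only the repeat of the same genes in 2 libraries. With 2 pairs no exact two-sided permutation test can go below p = 0.5, so none was run. The unbound median of CPM was 0.0419 and 0.0332, at the level of 3 counts in library 1 and below it in library 2. So low a median makes the size of this difference depend on the 0.1 added: adding 1 instead gave 4.23.

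The difference was smaller among genes with mRNA. Among genes at 1 CPM or more in both libraries, chosen after the values were seen, the bound median was 20.2 and 20.2 CPM per kb and the unbound median 11.6 and 11.7, a log2 difference of 0.78. Bound genes in this comparison also exceeded the genes in between, which had medians of 15.2 and 14.8. Bound genes were somewhat more often protein coding, at 93.1% against 86.4% of unbound genes. Within protein-coding genes 2656 of 2744 bound (96.8%) and 5915 of 13630 unbound genes (43.4%) reached 1 CPM. In bulk libraries a low level in every cell and a high level in few cells cannot be told apart.

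**Figure D1:**
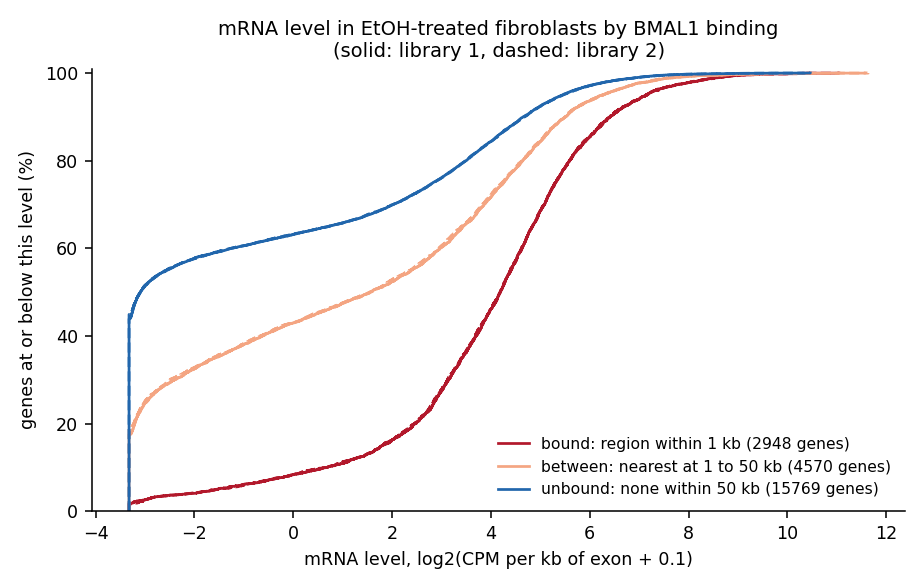
Cumulative share of genes (y axis, %) at or below each mRNA level (x axis, log2 of CPM per kb of exon plus 0.1) for bound genes, genes in between and unbound genes, with library 1 solid and library 2 dashed. The curve of the 2948 bound genes starts near 2% and lies to the right of the others, while 43.9% and 44.9% of the 15769 unbound genes have no count and form the vertical rise at the left.

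Within the bound group too, the level was lower the farther the start lay from the region. Of 1521 genes whose start lay inside a region 95.2% reached 1 CPM, with a median of 20.8 and 20.5 CPM per kb. At up to 0.5 kb outside a region the share was 90.6% of 1207 genes and the median 15.9 and 15.7, and at 0.5 to 1 kb it was 84.5% of 220 genes with 11.3 and 11.7. The 3 bands are thus in the same order in both libraries. Beyond the limit for bound genes the share was 60.4% at 1 to 5 kb, 60.9% at 5 to 10 kb and 57.4% at 10 to 50 kb. Among unbound genes it was lower in each band, with 52.4% at 50 to 100 kb, 42.4% at 100 to 500 kb and 25.9% past 500 kb. At the threshold itself, the 32 genes at 901 to 1000 bp had a median of 10.9 and 10.0 CPM per kb and 27 of them reached 1 CPM, and the 19 genes at 1001 to 1100 bp had 11.2 and 10.0 and 13 of them did.

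**Figure D2:**
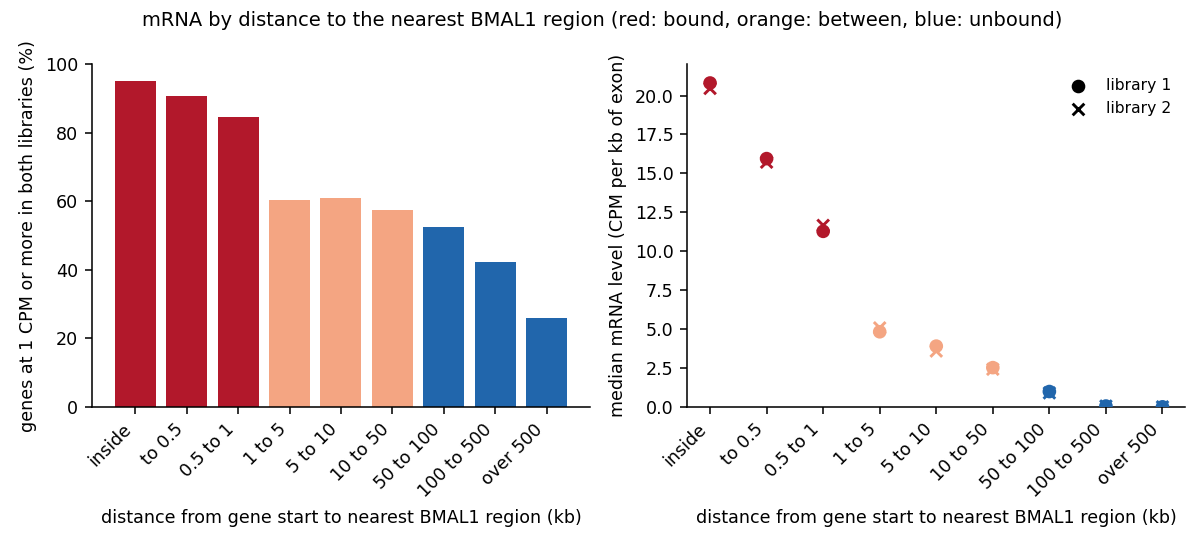
Left, share of genes (y axis, %) at 1 CPM or more in both libraries by distance of the gene start to the nearest BMAL1 region (x axis, kb). Right, median CPM per kb in the same bands for each of the 2 mRNA libraries, in red for bound genes, orange for genes in between and blue for unbound genes. The share is 95.2% for starts inside a region and 25.9% past 500 kb.

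Read the other way, the share of bound genes was larger at higher mRNA levels. Of 7266 genes with no count 46 were bound (0.633%), and of 4508 genes counted but short of 1 CPM in both libraries 174 were (3.86%). Of the 11513 genes at 1 CPM or more 23.7% were bound. When these were split into 10 equal bins by CPM per kb, the bound share was 9.64% in the lowest bin, 22.9% in bin 5 and 36.6% in the highest, where unbound genes made up 38.8%. Bin 4 (24.8%) stood above bins 5 and 6 (24%), and apart from that the share increased at each step. Of the 100 genes with the most mRNA per kb, 43 were bound, 26 lay in between and 31 were unbound.

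**Figure D3:**
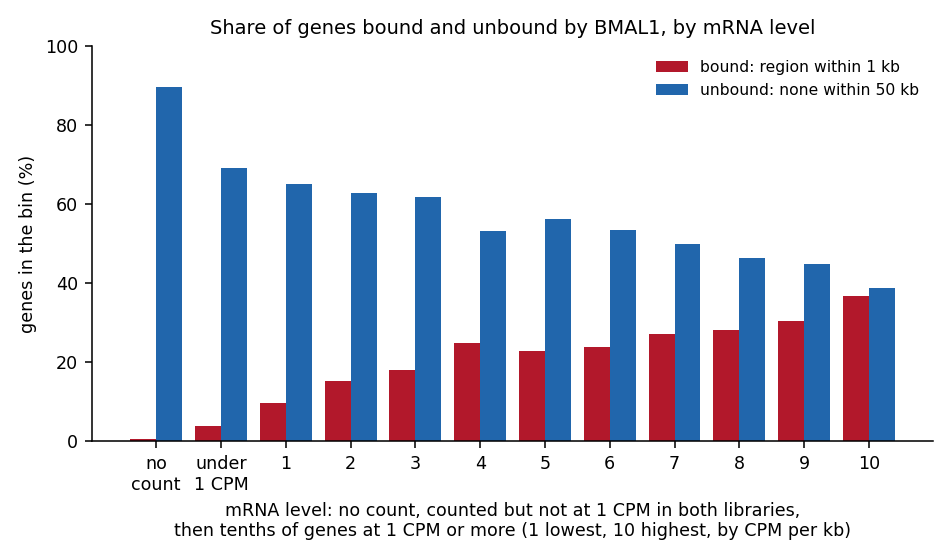
Share of genes (y axis, %) that were bound (red) or unbound (blue) among genes without counts, genes counted but not at 1 CPM in both libraries, and 10 equal bins of the other genes by CPM per kb (x axis). The bound share is 0.633% without counts and 36.6% in the highest bin, where the 2 bars nearly meet.

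The 10 bound genes with the highest level include genes of translation, the cytoskeleton, protein folding and the matrix. S100a6, a calcium-binding protein, led with 2106 and 1907 CPM per kb. Eef1a1, which delivers aminoacyl-tRNA to the ribosome, had 1258 and 1295, and Eef2, which moves the ribosome along the mRNA, 836 and 832. Cytoskeletal members were Actb (β-actin; 1203 and 1196) and Tubb5 (a β-tubulin; 684 and 683). The chaperone Hsp90ab1 had 1100 and 1172 CPM per kb and S100a10, the partner of annexin A2, 721 and 722. In each of these the 2 libraries lay close together. Fn1, which encodes the matrix protein fibronectin, had 1192 and 1180 CPM per kb, but its region was weak, at 7.41 and 15.9 RP10M, and is shared with Apol7d. Lamp1 (mm10, chromosome 8, 13159135 to 13175338, plus strand), a glycoprotein of the lysosomal membrane, combined 1001 and 1028 CPM per kb with a strong region of 657 and 597 RP10M. The other 8 had signals between 7.94 and 97.0 RP10M. Several of these genes have processed pseudogenes or near-identical relatives, so their counts are uncertain to that extent.

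The 10 unbound genes with the highest level were matrix, filament and membrane genes for the most part. Vim, the intermediate filament of mesenchymal cells, had 1315 and 1304 CPM per kb. Of the chains of type I collagen, Col1a1 had 1410 and 1182 CPM per kb and Col1a2 1349 and 1198. Pcolce, which enhances procollagen cleavage, had 678 and 629. Thbs1 (thrombospondin, 654 and 652), Anxa2 (895 and 824), Rpl8 (866 and 796), Tpt1 (657 and 624), Myl6 (662 and 604) and Ifitm3 (602 and 600) completed the group. The nearest region lay 53368 bp from Col1a1 and 53771 bp from Myl6, close to the limit for unbound genes, and 1007130 bp from Col1a2. These levels overlap with those of the 10 highest bound genes, so a very high mRNA level occurred with and without a BMAL1 region nearby.

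Among bound genes the mRNA level varied little with the strength of BMAL1 signal. The median bound gene had a signal of 27.8 and 25.5 RP10M in the 2 BMAL1 libraries, against 2.18 and 2.48 RP10M in the inputs, from a median of 37.5 and 45 reads. Over the 2948 bound genes the rank correlation of mean signal with mean CPM per kb was 0.045, and it was 0.043 to 0.046 for the 4 pairings of a BMAL1 library with an mRNA library. The input signal of the same regions had a rank correlation of 0.096 with CPM per kb. These are descriptions across genes: all points share the same libraries, 801 bound genes (27.2%) share a region with another gene start, and signal was not divided by region length.

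The bound genes were also split into 5 equal bins by signal. Their median signals were 10.9, 17.6, 26.7, 46.6 and 117 RP10M, and their median levels 16.4, 18.8, 18.6, 17.7 and 19.9 CPM per kb. The share at 1 CPM or more stayed between 92.0% and 93.2%. The levels thus spanned a narrow range while the signals spanned a wide one. The 50 genes with the strongest signal, 470 RP10M or more, had a median of 22.4 and 21.7 CPM per kb, and 44 of them (88%) reached 1 CPM.

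**Figure D4:**
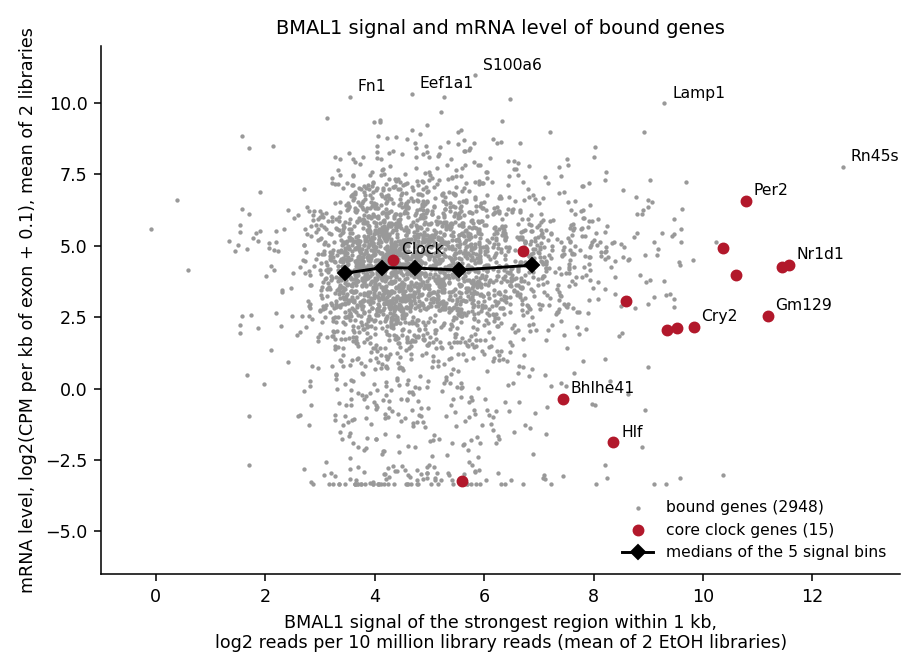
mRNA level (y axis, log2 of CPM per kb plus 0.1, mean of 2 libraries) against BMAL1 signal of the strongest region within 1 kb (x axis, log2 RP10M, mean of 2 EtOH libraries) for the 2948 bound genes in grey. The 15 bound clock genes are red, and black diamonds are medians of 5 equal bins by signal, which stay between 16.4 and 19.9 CPM per kb.

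Clock genes supplied 7 of the 10 strongest signals, at mean mRNA levels between 4.34 CPM per kb at Cry2 and 95.0 at Per2. Of 28 listed clock genes 15 were bound (53.6%), 2 lay in between and 11 were unbound. The bound members had a median signal of 733 RP10M and a median of 8.34 CPM per kb, below the 18.1 of all bound genes. That median was also below the 13.4 of the other 13 clock genes, but above the 7.53 of the 11 unbound ones. The value of 8.34 is that of Per1, one of 4 bound clock genes knocked out in these cells, and the median of the 11 others was 4.34 CPM per kb, with a median signal of 649 RP10M. The 10 strongest signals over all bound genes included Nr1d1, Nr1d2, Gm129, Per2, Cry1, Bhlhe40 and Cry2. The other 3 were Rn45s, 0610040F04Rik and 1810013L24Rik. Rn45s, the ribosomal RNA precursor, had 5972 and 6029 RP10M but also 2350 and 2326 RP10M in the inputs, and its repeated sequence makes both its signal and its 221 and 210 CPM per kb uncertain. 0610040F04Rik starts at the region of Bhlhe40 and had 3 and 4 counts, and 1810013L24Rik had 1211 and 1198 RP10M with 34.6 and 35.1 CPM per kb.

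Among the genes of the repressors, Per2 stood apart by its mRNA. Per1, Per2, Nr1d1 and Nr1d2 are the knocked-out genes, so their counts are reads over the exons of a targeted gene and need not be intact mRNA. Its region had 1777 and 1749 RP10M and its mRNA 96.4 and 93.5 CPM per kb, a value to which the transgene can contribute. Per1 had 376 and 399 RP10M with 8.92 and 7.76 CPM per kb, and Per3 631 and 667 RP10M with 4.01 and 4.10. Both were thus below Per2 in signal and in mRNA. The cryptochrome gene Cry1 had 1638 and 1493 RP10M with 16.3 and 14.8 CPM per kb. Its paralog Cry2 had 912 and 904 RP10M with 4.41 and 4.27. Gm129 (mm10, chromosome 3, 95878505 to 95882228, minus strand), whose product CHRONO represses the CLOCK-BMAL1 pair, had 2426 and 2218 RP10M against 16 and 16.6 RP10M in the inputs, and 6.27 and 5.19 CPM per kb. In both libraries its mRNA was below that of the median bound gene although only Rn45s, Nr1d1 and Nr1d2 had a stronger signal. The REV-ERB genes had the highest signals of the clock list, 3077 and 2986 RP10M at Nr1d1 and 2868 and 2700 at Nr1d2, and both are knocked out. Reads over their exons amounted to 18.6 and 21.2 CPM per kb for Nr1d1 and 17.9 and 19.8 for Nr1d2. The E-box repressor genes Bhlhe40 and Bhlhe41 differed widely, with 31.8 and 28.6 CPM per kb at 1338 and 1316 RP10M for Bhlhe40 and 0.659 and 0.691 CPM per kb at 176 and 171 RP10M for Bhlhe41.

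The output genes Dbp, Tef and Hlf encode related activators that bind D-box DNA and are classical clock outputs. Dbp had 734 and 733 RP10M with 4.04 and 4.50 CPM per kb. Tef had the weakest region of the 3, 106 and 104 RP10M, and the highest mRNA, 28.9 and 27.4 CPM per kb. Hlf (mm10, chromosome 11, 90336535 to 90390917, minus strand) had 338 and 319 RP10M and only 0.170 and 0.173 CPM per kb, from 69 and 59 counts. Without division by length it had 0.963 and 0.979 CPM, just short of 1 CPM in both libraries. Clock, whose product is the partner of BMAL1, had the weakest region of the bound clock genes, 22.2 and 18.1 RP10M, and 22.3 and 22.9 CPM per kb. Arntl was unbound, with 18.5 and 19.5 CPM per kb and the nearest region 861717 bp away. The clock kinase genes Csnk1d (44.0 and 41.0 CPM per kb) and Csnk1e (35.9 and 36.8) were unbound as well.

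By function, the share of bound genes differed widely between 34 lists, against 12.7% of all genes and 23.7% of genes at 1 CPM or more. It was above the share of all genes in 24 lists, and 32 lists had a bound member. Among the 28 lists with 10 or more members at 1 CPM, the bound share of those members was above that of all such genes in 17. The bound members had a higher median CPM per kb than the other members in 20 of the 27 lists with 5 or more bound members. The other members were taken at any mRNA level, also without counts. This number therefore repeats in part the difference between all bound and unbound genes and is no separate result on function. Some genes stand in more than 1 list. In the paragraphs on lists, a pair of values is the CPM per kb in libraries 1 and 2, and medians are of CPM per kb.

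Lists of energy metabolism were unequal. Glycolysis had 9 of 20 members bound (45%) with a median of 69.4 CPM per kb, against 18.3 in the other members. Among the others, Eno1 had 3 and 2 counts, but 92.8% of its exon bases are shared with another gene on the strand. Tpi1 (267 and 243) and Pgam1 (164 and 143) were high without being bound. The highest bound members of glycolysis were Pkm (pyruvate kinase; 453 and 408 CPM per kb), Ldha (lactate dehydrogenase A; 425 and 366), Aldoa (301 and 257) and Pgk1 (196 and 139). All 4 were higher in library 1, and the summed CPM of the list was 5005 and 4356. Of 20 genes of the tricarboxylic acid cycle, all at 1 CPM or more, 2 were bound, Ogdh with 18.7 and 18.3 CPM per kb and Suclg2 with 5.32 and 5.59, against a median of 63.9 in the others. Of 76 genes of oxidative phosphorylation 75 reached 1 CPM and 10 were bound (13.2%), the highest being Ndufa7 (173 and 141) and Atp5d (157 and 154). These 10 made up 13.3% of the 75, against 23.7% of all genes at 1 CPM or more. Mitochondrial ribosomal proteins, all 76 at 1 CPM or more, had 16 bound (21.1%), also below that 23.7%, led by Mrpl30 (71.5 and 65.4) and Mrpl54 (67.4 and 68.9).

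Lists of RNA and protein synthesis had bound shares from 23.2% to 41.7%. Splicing factors had 25 of 60 bound (41.7%), with Snrpd3, a core protein of the small nuclear ribonucleoproteins, at 257 and 298 CPM per kb and the RNA-binding proteins Hnrnpu and Hnrnpk at 212 and 235 and at 212 and 218. Initiation factors had 12 of 36 bound (33.3%), with Eif3e at 160 and 174 and Eif3a at 154 and 174. Their bound members had a median of 129 CPM per kb and the others 61.1. Subunits of RNA polymerases and Mediator had 17 of 57 bound (29.8%), and here the bound median of 11.4 CPM per kb was below the 21.6 of the others, with Polr2a, the largest subunit of RNA polymerase II, at 49.8 and 53.7. Aminoacyl-tRNA synthetases, all 20 at 1 CPM or more, had 5 bound (25%), close to the 23.7% of all such genes. They were led by Aars (142 and 141) and Tars (93.3 and 96.3). Cytosolic ribosomal proteins, though abundant, were bound about as often as all genes at 1 CPM or more: 19 of 82 were bound (23.2%), and 18 of the 77 at 1 CPM or more (23.4%), with Rplp0 at 662 and 618 and Rps20 at 417 and 365 CPM per kb.

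Lists of protein folding, turnover and transport had bound shares from 12.8% to 32.8%. Chaperones had 20 of 73 bound (27.4%), led by Hsp90ab1, Hsp90b1 (511 and 561 CPM per kb), a chaperone of the endoplasmic reticulum, and Hspa8 (342 and 390). Lysosome, V-ATPase and autophagy genes had 20 of 61 bound (32.8%), with a median signal of 52.5 RP10M, led by Lamp1, the autophagy factor Gabarap (336 and 366) and the protease genes Ctsd (329 and 316) and Ctsl (286 and 280). The list of ubiquitin ligases and deubiquitinases had 58 of 241 bound (24.1%), led by the ubiquitin-conjugating enzymes Ube2c (107 and 113) and Ube2d3 (103 and 108), which the list also holds, and the scaffold of ubiquitin ligases Cul3 (71.1 and 77.6). Of 39 proteasome genes 5 were bound (12.8%), close to the 12.7% of all genes, and these made up 13.9% of the 36 at 1 CPM or more, against 23.7% of all such genes, with Psma7 at 144 and 141 and Psmd14 at 79.9 and 80.3. Of 48 genes of vesicle coats and SNAREs 9 were bound (18.8%), with the coat genes Sec13 at 133 and 124 and Sar1a at 115 and 111. These 9 made up 20% of the 45 at 1 CPM or more, below the 23.7% of all such genes.

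The cytoskeleton and the collagens were far apart in bound share. Actin and contractile genes, all 29 at 1 CPM or more, had 13 bound (44.8%) with a median of 317 CPM per kb, against 130 in the others. Besides Actb they included Tpm4 (tropomyosin; 638 and 653), Myl12a (myosin light chain; 476 and 483), the actin-binding Pfn1 (438 and 458) and Acta2 (430 and 454). Of 44 collagen chains 1 was bound and 38 were unbound, although 25 reached 1 CPM. The bound one, Col5a1, had 99.6 and 89.0 CPM per kb and a region of 15.6 and 11.9 RP10M. Unbound collagen genes reached far higher levels, as at Col3a1 (478 and 419) and Col6a1 (494 and 475), besides type I. Of 30 other matrix genes 6 were bound (20.0%), led by Fn1, the collagen crosslinking enzyme Lox (392 and 391) and Fbln2 (95.6 and 85.1). These 6 made up 22.2% of the 27 at 1 CPM or more, close to the 23.7% of all such genes. Of the 15 fibroblast markers, Fn1 was the only one bound.

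Sterol synthesis genes had 10 of 23 bound (43.5%), among them Srebf2, the transcription factor that controls the pathway (116 and 107 CPM per kb). The bound median of 37.8 was above the 27.8 of all other members but below the 58.0 of the unbound ones. Immediate early genes had 10 of 25 bound (40.0%), with Klf6 (65.6 and 64.8), Junb (42.3 and 41.3), Fosl2 (43.1 and 39.5) and the phosphatase gene Dusp1 (31.7 and 33.7, at 253 and 241 RP10M). Cell cycle genes had 11 of 36 bound (30.6%), among them Cdk4 (516 and 509 CPM per kb), with a strong region of 499 and 476 RP10M, and Cdkn2a (352 and 339), with a weak one of 3.70 and 2.84. Replication and repair genes, all 75 at 1 CPM or more, had 18 bound (24%), close to the 23.7% of all such genes. They were led by the helicase subunits Mcm3 (130 and 130) and Mcm2 (131 and 129). Signalling by TGF-β and BMP had 9 of 41 bound (22%), led by Ltbp3 (91.2 and 86.2) and Tgfb2 (31.7 and 33.9).

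The remaining lists had bound shares on either side of the 12.7% of all genes. The 22 interferon response genes all reached 1 CPM, yet 1 was bound, Bst2, with 372 and 345 CPM per kb at a weak region of 3.70 and 5.10 RP10M. Genes with the Zfp prefix, mostly C2H2 zinc finger genes, had 38 of 357 bound (10.6%), although 310 reached 1 CPM. The highest bound ones were Zfp36l2 (68.8 and 78.6), an mRNA-binding protein with another type of finger, and Zfp91 (43.1 and 43.9). Families with little or no mRNA here were bound rarely or not at all: 0 of 1100 olfactory receptor and 0 of 323 vomeronasal receptor genes, none of which reached 1 CPM, 1 of 160 ion channel genes (Kcnj4, 0.110 and 0.0231) and 1 of 52 keratin genes (Krt80, 5.25 and 4.62). Solute carriers had 63 of 378 bound (16.7%), but 60 of these 63 were among the 175 members at 1 CPM or more (34.3%). They were led by Slc25a4, the ADP/ATP carrier of mitochondria (359 and 329), and Slc38a2, an amino acid transporter (192 and 197). Hox genes had 6 of 39 bound, all among the 19 at 1 CPM or more, led by Hoxd13 (125 and 130) and Hoxd10 (30.7 and 32.0).

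**Figure D5:**
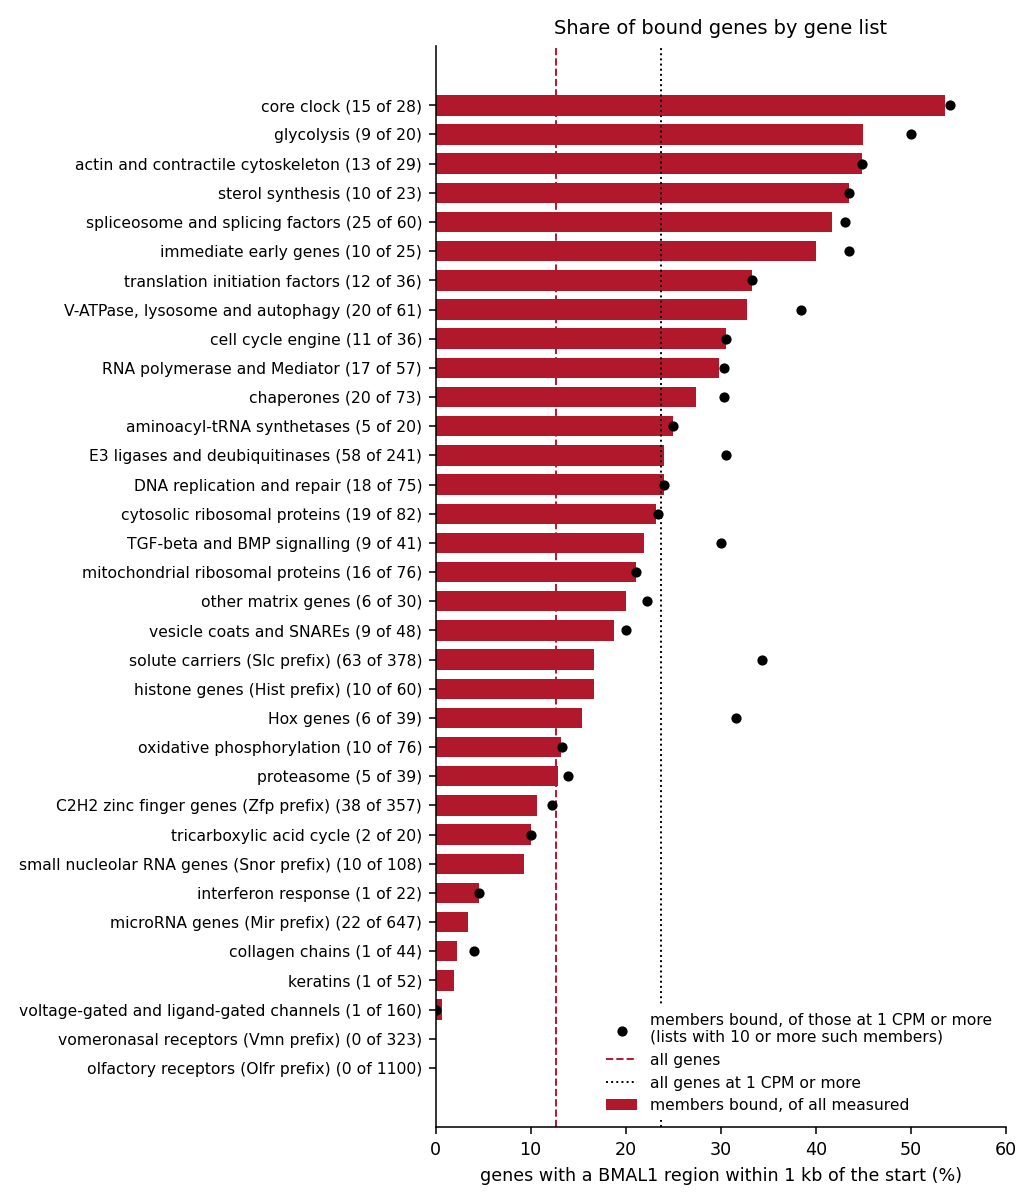
Share of genes with a BMAL1 region within 1 kb of the start (x axis, %) for each of 34 gene lists (y axis, with bound and measured members), as bars for all measured members and as dots for members at 1 CPM or more where there are 10 or more. The dashed red line is all genes (12.7%) and the dotted black line all genes at 1 CPM or more (23.7%). Clock genes lead with 53.6% and the receptor families have none.

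Of the bound genes 220 did not reach 1 CPM in both libraries. For 212 of them both libraries were below 1 CPM, and 46 had no counts. They comprised 88 protein-coding genes, 80 long noncoding RNA genes, 21 microRNA genes, 10 small nucleolar RNA genes and 21 of other or unmatched kinds. Libraries made with an mRNA kit do not measure mature microRNAs and small nucleolar RNAs, so for these 31 genes the count is no measure of their product. Without genes of these 2 kinds, 2728 of 2917 bound genes (93.5%) and 6127 of 15320 unbound genes (40.0%) reached 1 CPM. For 126 of the 220 (57.3%) the region also lay within 1 kb of the start of a gene at 1 CPM or more. Sharing a region with any other gene start was more frequent among them, 66.4%, than among bound genes at 1 CPM or more, 24%. Their median signal was 27.0 RP10M, against 26.6 in bound genes at 1 CPM or more. A shared region can enter both medians, so these 2 values are no separate comparison of strength. In 35 of the 220, at least 50% of the exon bases are shared with another gene on the same strand, where reads are not assigned to either. There were 58 protein-coding genes without the start of a gene at 1 CPM or more at the region.

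The 10 strongest regions at genes below 1 CPM fell into these kinds. Regions shared with another gene were those of 0610040F04Rik (at Bhlhe40), C130036L24Rik (465 and 476 RP10M, at Ncl, which encodes nucleolin), BC048644 (327 and 281, at the amino acid transporter gene Slc7a5), 9530052E02Rik (314 and 279, at Irs2, which encodes an insulin receptor substrate), A630020A06 (570 and 530, at AW549877), Rmnd1 (727 and 809, at 1700052N19Rik) and U05342 (276 and 250, at Zfp91). Rmnd1 and U05342 share 94.5% and 100% of their exon bases with another gene on the strand, so their 0 to 3 counts do not measure their mRNA. Pisd-ps3, on an unplaced sequence, had 641 and 649 RP10M, but also 233 and 234 in the inputs. The remaining genes, B930059L03Rik (490 and 488 RP10M, 56 and 30 counts) and Hlf, had a strong region of their own, low input and little mRNA.

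Bound promoters with an E-box had stronger regions but not more mRNA than those without. The motif CACGTG, its own reverse complement, was searched in the 300 bases from 250 before to 50 after the RefSeq start, in protein-coding genes at 1 CPM or more on chromosomes that the promoter table covers. A promoter was found for 2152 of 2593 such bound genes (83.0%) and for 4635 of 5717 such unbound genes (81.1%). CACGTG stood in 646 of the 2152 bound promoters (30.0%) and in 194 of the 4635 unbound ones (4.19%). Its share was 10.5% in the 8783 promoters of all genes in this search. Over the 32851 entries of the whole table, at any mRNA level, it was 7.15%. More than 1 copy was present in 105 bound promoters (4.88%) and 3 unbound ones. Across the 5 signal bins of bound genes, low to high, the share was larger at each step, with 11.5%, 20.5%, 25.7%, 37.2% and 54.3%.

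Bound genes with an E-box in this window had a median signal of 46.5 RP10M, against 22.3 without it, but a median mRNA level of 19.6 and 19.5 CPM per kb, against 21.4 and 21.4 without it. The related element CACGTT was searched on both strands and counted apart from CACGTG. It stood in 6.74% of bound and 5.13% of unbound promoters, against 5.59% over all genes in the search. The GC box GGGCGG, also on both strands, stood in 77.1% of bound and 65.8% of unbound promoters, against 68.5% over all genes in the search. CCAAT stood in 37.4% of bound and 40.3% of unbound promoters, against 39.5% over all genes in the search. Over the whole table, at any mRNA level, the shares were 35.7% for the GC box and 37.4% for CCAAT. A match is a string of letters in this window and not a measured site. Bound promoters were also richer in CpG, with a median observed to expected ratio of 0.848 against 0.777 in unbound promoters. In 3 equal bins of these genes by CpG ratio the bound median was above the unbound one each time, at 19.6 against 8.20 CPM per kb in the lowest bin, 19.2 against 13.3 in the middle and 22.9 against 16.2 in the highest. The part of promoter composition in the difference between bound and unbound genes was not tested further.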

How the data were processed

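Per the file headers, the authors counted reverse-stranded reads per gene, over all exons of a UCSC mm10 annotation, using featureCounts (v1.5.0-p1). No aligner is named in the sources used here. Read counts of each ChIP and input library in the 4740 regions were deposited too. The region files also hold, per the file headers and layout, MACS2's score, its fold enrichment (a ratio) and −log10 p and q per region, as deposited by the authors; the lowest −log10 q was 2.17, and the sources used here do not say whether replicates were pooled for calling. The deposited signal table carries RPKM in its name. Its values were found to be reads per 10000000 library reads with 5 added and without division by length, so 5 was subtracted. Library totals followed from these values. Columns named Ctl were taken as EtOH libraries by treatment and replicate number. The other 6 columns of the tables, of 4-OHT libraries, and the authors' DESeq2 comparison were not used.

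CPM were computed from the deposited counts with the summed counts as library size, divided by exon length in kb, and a pseudocount of 0.1 was added for log2 values. No count filter was applied. The 133 genes on more than 1 chromosome or strand, of 23420, were left out. Alternative starts within a gene were not considered. A gene's signal is that of the strongest region within 1 kb. Reads in exons shared by genes on the same strand are assigned to neither by this counting. Names, gene types and promoters are from RefSeq (GRCm38.p6), with 23134 genes matched, a promoter being used when its start lay within 1000 bp of the gene start. Distances equalled those of bedtools 2.31.1 on simulated regions. TMM factors (edgeR 4.0.16) and DESeq2 1.42.0 size factors were alternatives. Python 3.11.15, pandas 2.3.3, scipy 1.17.1 and R 4.3.3 were used. No test was run, since every gene is read in the same 2 libraries.

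The named genes are the 10 bound genes with the strongest signal, the 10 with the highest level, the 10 with the strongest signal below 1 CPM, the 10 unbound genes with the highest level, the bound clock genes and up to 4 of the highest bound members of each list. A few of these are not reported here. Where single members beyond these are named, they were chosen after their values were seen. The members and lists were chosen with earlier results of these data known.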

Additional observations from a re-analysis of the deposited data

How the results depend on the processing

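No paired analysis was possible because the groups compared are genes of the same libraries and not samples with replicate numbers; the difference taken within each library is given instead. The log2 difference between the medians of bound and unbound genes (7.28) stayed positive under every alternative run. It was 7.31 with bound genes within 0.5 kb, 7.14 within 5 kb, 7.43 with unbound genes free of regions within 100 kb, 6.61 with every gene that is not bound as unbound, 7.29 with regions at −log10 q of 10 or more, 7.05 in protein-coding genes, 8.62 without division by length, 7.27 with DESeq2 size factors, 7.42 without genes that share a region, and 7.28 with either mRNA library left out. It shrank to 4.23 with 1 as pseudocount and to 1.24 among genes with 10 or more counts, both of which reduce the weight of genes without counts. Of the alternatives chosen after seeing the data, genes at 1 CPM or more gave 0.78, the third of protein-coding genes at 1 CPM or more with the highest CpG ratio 0.495, genes without shared exon bases 7.25, and leaving out microRNA and small nucleolar RNA genes 7.24. The number of bound genes at 1 CPM or more fell to 1623, against 2728, with the stricter regions, since fewer regions entered, and no other count moved by over 1.5 times. The rank correlation of signal and level (0.045) stayed between 0.040 and 0.066: 0.056 for summed regions, 0.042 per kb of region, 0.042 for ChIP minus input, 0.040 with CPM, 0.050 in genes at 1 CPM or more, 0.052 without shared regions, 0.053 in protein-coding genes, 0.040 within 0.5 kb and 0.066 with the stricter regions. With each library left out in turn it was 0.044 to 0.046. Regions at the level of a few reads, such as those of Cdkn2a and Bst2, and genes near 3 counts limit what single values show.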

Other observations

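Bound genes were unevenly spread over the chromosomes. Chromosome 10 had the highest share, 216 of 1089 genes (19.8%), followed by chromosome 19 with 148 of 761 (19.4%) and chromosome 15 with 163 of 868 (18.8%). The X chromosome had 40 of 995 (4.02%), chromosome 7 had 136 of 2118 (6.42%), and of 31 genes on the Y chromosome 0 were bound. Among genes at 1 CPM or more the shares were 34.5% on chromosome 10, 15.1% on chromosome 7 and 9.04% on the X chromosome, against 23.7% of all such genes, so the order of these 3 was the same. These are values with no test.

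Genes of small RNAs were bound in 22 of 647 entries with the Mir prefix, 21 of them microRNA genes in RefSeq and 1 unmatched there, and in 10 of 108 small nucleolar RNA entries, but mRNA libraries do not measure their mature products, so their counts are not read here. Among them Mir196b, within the Hoxa cluster, had a region of 25.9 and 23.2 RP10M that it shares with no other gene start. Of 60 entries with the Hist prefix 10 were bound (16.7%), against 12.7% of all genes, and 44 lay in between. Only 6 of the 60 reached 1 CPM, and 2 of these were bound.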
